A study of Mus musculus with 21 samples.

Results

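Mammary tumours of physically active mice at week 18 were compared with those of physically active mice at week 12. The comparison holds 6 of the 21 libraries of the series, 3 tumours per week, taken by their labels. All of these mice carried the MMTV-PyMT genotype, a transgene in which a mouse mammary tumour virus promoter drives the polyoma middle T antigen, so that every tumour described here comes from a transgenic mammary gland. The labels call the 3 tumours of a week biological replicates, and they do not say from which event the weeks count or which mammary gland was taken. Tumours of sedentary MMTV-PyMT mice, 3 at week 12 and 3 at week 18, serve below to show where the difference between the weeks was peculiar to active mice. The values are read counts per gene, scaled so that the 6 active tumours can be compared, and are called scaled counts. Mean levels of gene lists are means of log2(scaled count + 1) with all 12 tumours scaled together.

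Tumours of this strain begin as local growths in a gland that is largely fat, and grow into dense epithelial masses. A piece of such a tumour therefore carries RNA of epithelium, fat, vessels, fibroblasts, immune cells and, at the edge, skeletal muscle. Growing tumours are known to depend on glycolysis and on the hypoxia response, in which the transcription factor HIF binds short DNA motifs near genes for sugar use, acid export and vessel growth. In bulk samples such as these, fewer cells of a type and less RNA per cell cannot be told apart.

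The epithelial label held in all 6 tumours. The luminal keratin gene Krt8 held 30217, 33896 and 15594 scaled counts in week 12 replicates 1, 2 and 3, and 39032, 37402 and 35938 at week 18. Week 12 replicate 3 was the lowest of the 6, and it stood apart in other ways. Its mean log2 level over 20 T cell markers was 10.2, against 3.67 to 5.22 in the other 5 active tumours. The same level over 18 B and plasma cell markers was 10.95 in that tumour and 3.29 to 4.61 in the others. Its adipocyte list stood at 13.8, and the others ran from 6.25 to 11.3. Most list medians are therefore given for all 6 tumours and again for the 5 without week 12 replicate 3. The same holds for the difference or the adjusted p-value of most named genes.

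Library depth ran from 22273172 to 28973775 reads in the 6 tumours. Among 19188 genes tested with limma, none had an adjusted p under 0.05 (0% called), although 2317 genes had an unadjusted p under 0.05. By edgeR, 0 genes passed, with 2919 at an unadjusted p under 0.05, and by DESeq2 884 passed. DESeq2 placed 299 genes higher (1.56% of those tested) and 585 lower (3.05%) at week 18. Without week 12 replicate 3, limma called 1 gene of 18946 (0.00528%), edgeR 0 and DESeq2 342, of which 123 were higher (0.649%) and 219 lower (1.16%). The DESeq2 calls shared 272 genes, 30.77% of the calls with 6 tumours and 79.53% of those with 5.

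The counts of genes whose tumours did not overlap between the weeks give a second, test-free description. All 3 week 18 tumours lay above all 3 week 12 tumours at 2349 genes (12.2%), and below them at 2416 genes (12.6%). In sedentary tumours the weeks did not overlap at 10.55% of genes in either direction, against 24.83% in active tumours. With 5 active tumours the shares were 16.1% higher and 17.3% lower, and without week 18 replicate 1 they were 17.9% and 17.9%. At fixed scaling, leaving out a tumour can keep or add genes without overlap but never remove one. The remaining tumours were scaled and filtered anew each time, which can remove single genes. A count that is as high with fewer tumours therefore says nothing of its stability. These percentages are the background for counts of list members below, each for its own set of tumours, where "without overlap" has this meaning. No member of the lists passed limma in the comparison of 6 tumours, so members are described by their levels. Adjusted p-values of DESeq2 are named as such. The shares of all genes tested that DESeq2 called, given above, are the background for its counts of list members.

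The only gene that limma called without week 12 replicate 3 was Pgk1-rs7, a processed pseudogene copied from Pgk1, which encodes the glycolytic enzyme phosphoglycerate kinase. RefSeq places it at chr12:10898566-10900313 of GRCm38. It held 92 and 103 reads in week 12 replicates 1 and 2 and 0 reads in each of the 3 week 18 tumours, at least 33.9-fold lower against a floor of 3 reads per library (limma adjusted p = 0.0169). The call was lost by edgeR (adjusted p = 0.495) and when any further tumour was left out (limma adjusted p of 0.114 to 0.365). Another copy, Gm5537, at chr3:58102558-58104296, showed the mirror image. It held 0 reads in those same tumours, 73 in week 12 replicate 3, and 338, 155 and 235 reads at week 18, at least 79.7-fold higher than in week 12 replicates 1 and 2 (limma adjusted p = 0.0960).

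The copies cannot be told apart from Pgk1 by sequence, and the mirror image ran through all 12 tumours. The 1255 bases of the annotated Pgk1-rs7 transcript matched the Pgk1 transcript at 1255 positions. All 1252 bases of Gm5537 matched it too, a percent identity of 100 in both cases. The stretch below, positions 153 to 212 of the Pgk1 transcript in the GENCODE M21 annotation, is shown because it is letter for letter that of both copies.
Pgk1, Pgk1-rs7 and Gm5537: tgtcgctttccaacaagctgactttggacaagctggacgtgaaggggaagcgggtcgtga
Each of the 12 tumours had reads on exactly 1 copy, which was Pgk1-rs7 in 2 of them and Gm5537 in 10. The reads on that copy came to 1.02% to 1.95% of the Pgk1 reads of the same tumour. The Pgk1-rs7 call is thus a call on reads whose place of origin is uncertain.

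**Figure D1:**
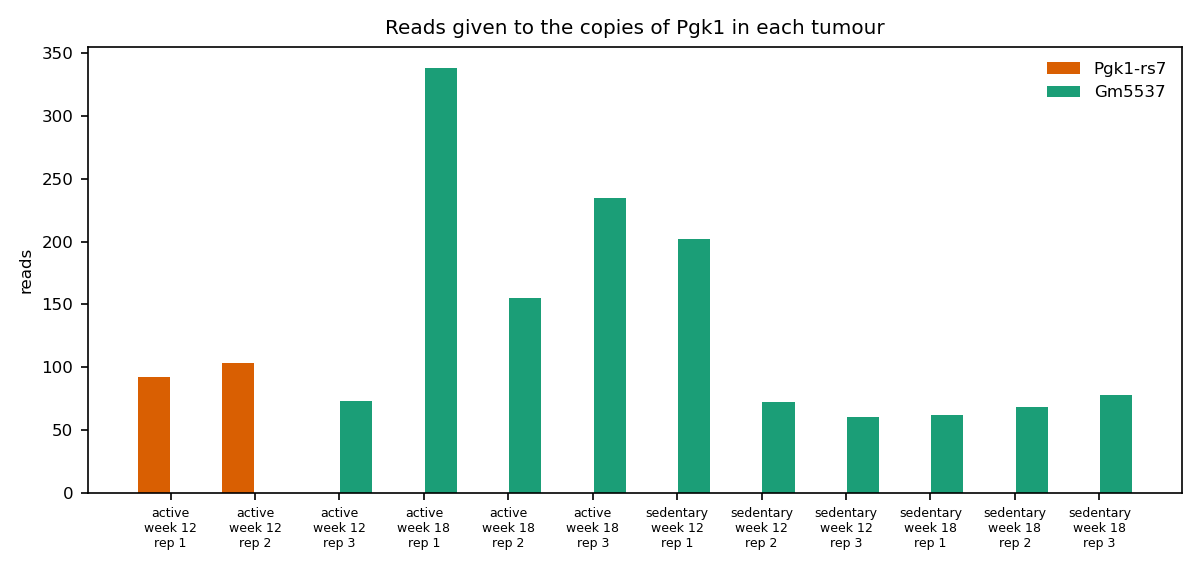
Reads given to the Pgk1 copies Pgk1-rs7 and Gm5537 (y axis, unscaled reads) in each of the 12 tumours (x axis, 1 pair of bars per tumour). Only active week 12 replicates 1 and 2 have reads on Pgk1-rs7, 92 and 103, and these are the tumours with 0 on Gm5537.

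Glycolysis genes were higher at week 18 in 2 of the 3 active tumours. The mean log2 level of the list was 12.31, 12.54 and 12.08 at week 12 and 13.18, 12.50 and 13.11 at week 18, where replicate 2 lay below the highest tumour of week 12. Of 17 genes, 14 had a log2 difference above 0 and 7 were higher without overlap (background 12.2%), with a median of 0.78, which was 0.51 without week 12 replicate 3. The median over all genes tested was -0.03. Sedentary tumours had a median of -0.35 for the same list, with 4 members lower without overlap. DESeq2 called 5 members, 0 of them lower, and 2 without week 12 replicate 3.

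Pgk1 itself held 4506, 6964 and 4264 scaled counts at week 12 and 20078, 8150 and 15879 at week 18. The week 18 tumours all lay above the week 12 tumours, with replicate 2 of week 18 close to the highest of week 12. The log2 difference was 1.43 ± 0.41 (SE, n = 3 each), with a limma adjusted p of 0.413 and a DESeq2 adjusted p of 0.0134, which was 0.0725 without week 12 replicate 3. Tpi1, the triose phosphate isomerase gene, held 6472, 7719 and 5912 scaled counts at week 12 and 16675, 10012 and 15167 at week 18. Its DESeq2 adjusted p was 0.00538, and 0.0409 without week 12 replicate 3. Slc16a3 encodes the lactate exporter MCT4. Its levels were 110, 141 and 85.4 at week 12 and 1238, 256 and 526 at week 18, a log2 difference of 2.32 ± 0.60 (SE). Week 18 replicate 1 was the highest of the 6 tumours and replicate 2 was nearest to week 12. DESeq2 gave an adjusted p of 0.00221, and with 5 tumours the difference was 2.13 at 0.0209. In sedentary tumours the log2 difference of Slc16a3 was -1.95.

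Ak4 was not on the list but was among the genes with the smallest p-values. Ak4, at chr4:101416478-101467771, encodes a mitochondrial adenylate kinase and is a known HIF target. Its scaled counts were 221, 294 and 149 at week 12 and 1296, 775 and 1721 at week 18, with no overlap. The log2 difference was 2.49 ± 0.40 (SE, n = 3 each), the limma adjusted p 0.413 and the DESeq2 adjusted p 2.2e-06. Without week 12 replicate 3 the difference was 2.23. Sedentary tumours held 1399, 254 and 184 scaled counts at week 12, scaled among themselves, and 135, 193 and 284 at week 18, so their weeks did overlap.

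The hypoxia list had the same direction, with more spread among the tumours. Of 22 genes, 19 had a difference above 0, 8 were higher and 1 was lower without overlap (backgrounds 12.2% and 12.6%). Its median was 0.69, and 0.55 without week 12 replicate 3, but 0.38 without week 18 replicate 1, the tumour with the highest level. The mean log2 level of the list was 10.05, 9.79 and 9.91 in the week 12 tumours and 11.1, 9.91 and 10.6 at week 18, where replicate 2 did not stand out from week 12. With 6 tumours, DESeq2 called Ddit4 higher and Angptl4 lower, and no other member. Sedentary tumours had a median of -0.37.

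Ankrd37, a small ankyrin-repeat gene induced by HIF, at chr8:45996908-46000414, was among the 4 genes with the smallest p-values among those higher with 5 tumours. It held 19.7, 14.9 and 63.8 scaled counts at week 12 and 166, 77.3 and 139 at week 18. The weeks did not overlap, and week 12 replicate 3 was the nearest to week 18. Without that tumour the log2 difference went from 2.14 to 2.75 and the DESeq2 adjusted p from 0.0663 to 6.36e-05. Ddit4, an mTORC1 inhibitor induced by hypoxia and stress, held 2992, 4515 and 3411 scaled counts at week 12 and 9418, 5747 and 8735 at week 18 (DESeq2 adjusted p = 0.00683, and 0.0448 with 5 tumours). Angptl4 went against the list. It held 2444, 663 and 6924 scaled counts at week 12 and 432, 209 and 306 at week 18, a log2 difference of -2.88 and of -2.07 with 5 tumours. Angptl4 encodes an inhibitor of lipoprotein lipase that adipocytes also make. The order of Angptl4 across the tumours was that of the adipocyte list at week 12 and the reverse of it at week 18. Whether fat contributes to the level of Angptl4 was not tested.

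HIF recognises the motifs ACGTG and GCGTG. Windows of 250 bases before to 50 after the transcription start were taken from RefSeq (GRCm38.p6) and searched for both motifs on both strands. Of the 22 hypoxia genes 16 had a window, and 16 of those held a motif. Of the 17 glycolysis genes all had a window, and 15 held a motif, 88.2%. Of the members higher at week 18 without overlap, 6 of 6 hypoxia genes and 5 of 7 glycolysis genes with a window held one. Among all 27025 genes with a window the share was 46.7%. The stretches below, 5′ to 3′ with matches in capitals, are examples from Ak4, Ankrd37, Slc16a3 and Pgk1. Each is the stretch of 60 bases before the start with most motif matches, and each holds 2. Tpi1, Ddit4 and Angptl4, whose levels are also given, are not shown.
Ak4, chr4:101419204-101419263, plus strand: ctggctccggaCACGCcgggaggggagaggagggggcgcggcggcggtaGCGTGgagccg
Ankrd37, chr8:45999960-46000019, minus strand: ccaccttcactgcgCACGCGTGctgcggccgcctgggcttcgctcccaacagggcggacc
Slc16a3, chr11:120949007-120949066, plus strand: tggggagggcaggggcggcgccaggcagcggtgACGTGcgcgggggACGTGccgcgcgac
Pgk1, chrX:106186929-106186988, plus strand: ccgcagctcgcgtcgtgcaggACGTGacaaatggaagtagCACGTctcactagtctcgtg
In Slc16a3 the matches lie within the last 60 bases before the start used. For Ak4, Ankrd37 and Slc16a3 that start lies inside the RefSeq span of the gene and is not its outermost end. A match describes the letters of the window and is no evidence of binding in these tumours.

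**Figure D2:**
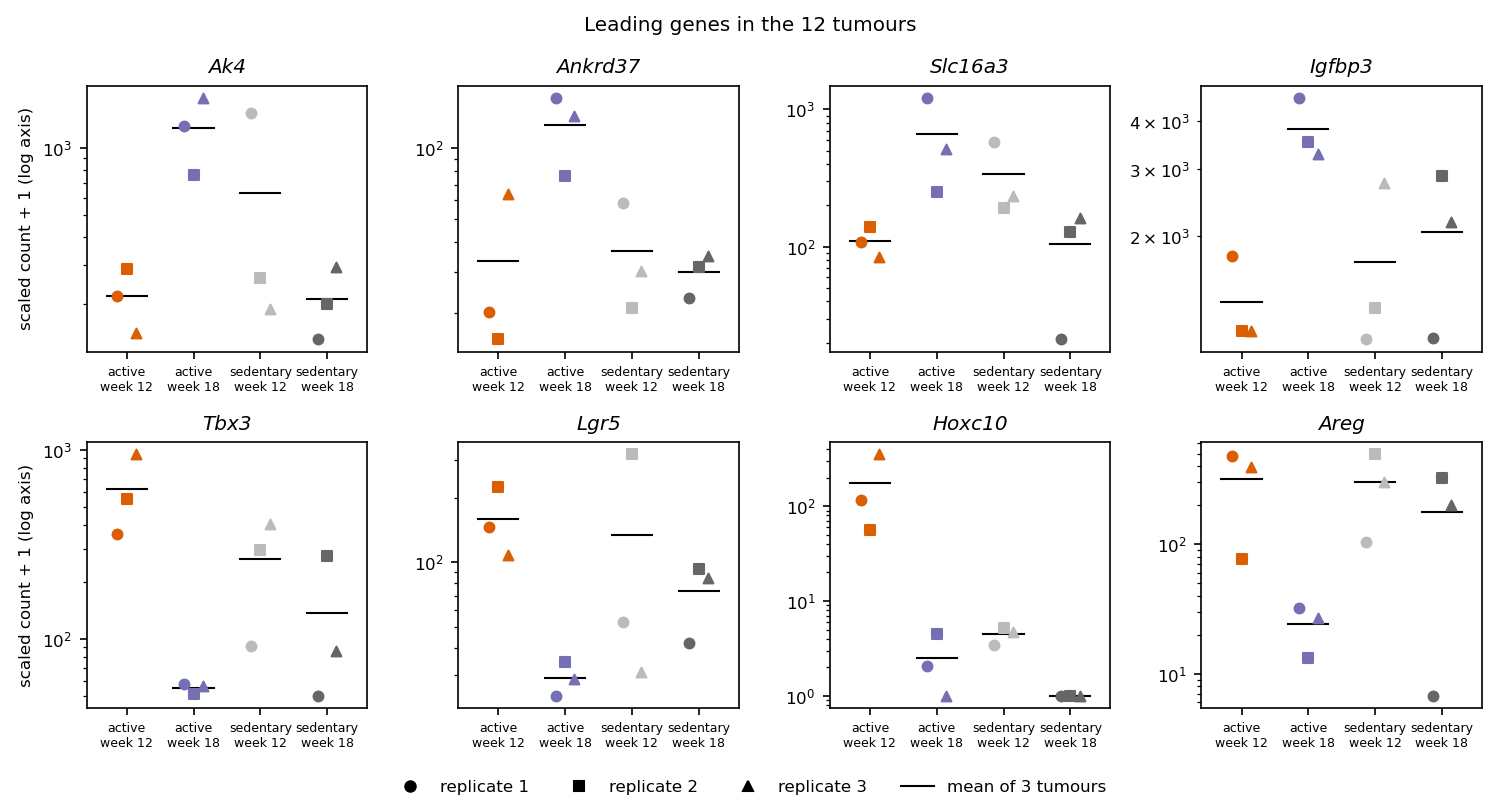
Scaled count + 1 (log axis) of 8 genes in 12 tumours scaled together, 1 point per tumour, with marker shape for the replicate and a line for the mean of 3. Ak4, Ankrd37, Slc16a3 and Igfbp3 sit higher and Tbx3, Lgr5, Hoxc10 and Areg lower in all 3 active tumours of week 18 than in all 3 of week 12.

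Cell cycle genes were higher as a group. All 23 genes of the G1/S and DNA replication list had a difference above 0 and 11 were higher without overlap (background 12.2%). Their median was 0.62, and 0.41 without week 12 replicate 3. All 24 genes of the mitosis list were above 0 as well, 11 without overlap, with a median of 0.85 and of 0.48. Week 12 replicate 3 had the lowest level of the mitosis list, 9.20, against 10.04 and 10.46 in the other week 12 tumours and 10.38 to 11.21 at week 18. Without week 12 replicate 3 and week 18 replicate 1 together, the medians were 0.16 and 0.26. In sedentary tumours they were 0.24 and 0.19.

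Rrm2 encodes the regulatory subunit of ribonucleotide reductase, which makes the DNA precursors. It held 1571, 2029 and 948 scaled counts at week 12 and 3206, 3384 and 2648 at week 18, and had a DESeq2 adjusted p of 0.0438, and of 0.0295 without week 12 replicate 3. Ube2c, the ubiquitin-conjugating enzyme of mitotic exit, held 1017, 1398 and 538 scaled counts at week 12 and 2696, 1830 and 1789 at week 18. Neither DESeq2 nor limma called Ube2c, at adjusted p of 0.0921 and 0.413, and its log2 difference of 1.17 was 0.79 with 5 tumours. The cyclin-dependent kinase inhibitor Cdkn1a was higher too, with 758, 937 and 900 against 2501, 1052 and 1906, and was called by neither, with log2 differences of 0.99 and, for 5 tumours, 1.02.

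Ribosomal protein genes had the highest share of members without overlap of the 52 lists. Of 32 genes, 32 were above 0 and 31 were higher without overlap, against the background of 12.2%, but the differences were small, with a median of 0.35 on the log2 scale. The list's mean log2 level was 13.77, 13.93 and 13.95 in week 12 tumours and 14.22, 14.18 and 14.27 at week 18. Sedentary tumours had a median of 0.28 with 0 members higher without overlap, and the difference of the changes had a median of 0.06. Rps2, a protein of the small subunit, held 28832, 32177 and 27311 scaled counts at week 12 and 43111, 41912 and 49482 at week 18 (DESeq2 adjusted p = 0.00262). The log2 difference of Rps2 was 0.61, and 0.55 with 5 tumours. DESeq2 called 10 of the 32 higher (background 1.56%), and 6 without week 12 replicate 3 (background 0.649%).

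Nuclear and mitochondrial genes of the respiratory chain went in opposite directions. Of 30 nuclear genes, 27 were above 0 and 12 were higher without overlap (background 12.2%), with a median of 0.23. For 5 tumours the median was 0.36 and the count 26 of 30, against a background of 16.1%. Ndufv2, a complex I subunit, held 1570, 1723 and 1806 scaled counts at week 12 and 2231, 2283 and 2396 at week 18 (DESeq2 adjusted p = 0.0116, and 0.0210 with 5 tumours). All 13 genes of the mitochondrial genome were below 0 and 6 were lower without overlap (background 12.6%). Their median was -0.55, and -0.27 without week 12 replicate 3. Sedentary tumours had a median of -0.19 for the 13, with 5 lower without overlap. For the nuclear genes the sedentary median was 0.10, with 3 higher without overlap. In active tumours the mitochondrial genome took 2.51%, 2.21% and 3.91% of the reads at week 12 and 1.97%, 2.16% and 1.59% at week 18. These weeks did not overlap (exact permutation p = 0.1, 2-sided, the smallest that 3 against 3 allows).

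These small and uniform differences moved together with the length and class of genes. Coding genes with a mean of at least 50 scaled counts were split into 5 classes of like size by the length of their annotated transcript. In the shortest class, 31.08% were higher and 5.02% were lower without overlap, with a median of 0.25. In the longest, 5.84% were higher and 17.28% lower, with a median of -0.09. The medians of these classes were 0.23 and -0.11 with 5 tumours. Ribosomal protein genes and nuclear respiratory chain genes have short transcripts. The part of transcript length in their differences was not tested.

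Long noncoding and TEC transcripts were lower at week 18 in active tumours, and processed pseudogenes were not. Of 723 genes of the class TEC, transcripts that GENCODE lists as still awaiting laboratory proof, 29.46% were lower and 0.830% higher without overlap, with a median of -0.82. Antisense genes had a median of -0.60, long intergenic RNA genes of -0.56 and protein-coding genes of 0.03. The 460 processed pseudogenes had a median of 0.19, with 16.3% higher and 6.52% lower without overlap. In sedentary tumours the medians of the 3 noncoding classes were -0.06, -0.08 and -0.05. The 3 classes together took 0.992%, 0.873% and 0.945% of reads at week 12 and 0.473%, 0.803% and 0.663% at week 18 (exact permutation p = 0.1). Much of that difference lay in Malat1, Neat1 and Xist. Without these genes the shares were 0.425%, 0.401% and 0.463%, and then 0.287%, 0.388% and 0.347% (exact permutation p = 0.1). The class medians with 5 active tumours were -0.75, -0.55 and -0.48. A530001N23Rik, an intergenic RNA gene, had one of the smallest p-values, with 155, 140 and 149 scaled counts at week 12 and 40.7, 40.4 and 26.6 at week 18. Its log2 difference was -2.04 ± 0.22 (SE), its limma adjusted p 0.376 and its DESeq2 adjusted p 2.84e-08, and with 5 tumours the difference was again -2.04. The labels do not give RNA quality or a sequencing batch, and the weeks come from separate deposited tables, so that week and any batch tied to it cannot be told apart.

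**Figure D3:**
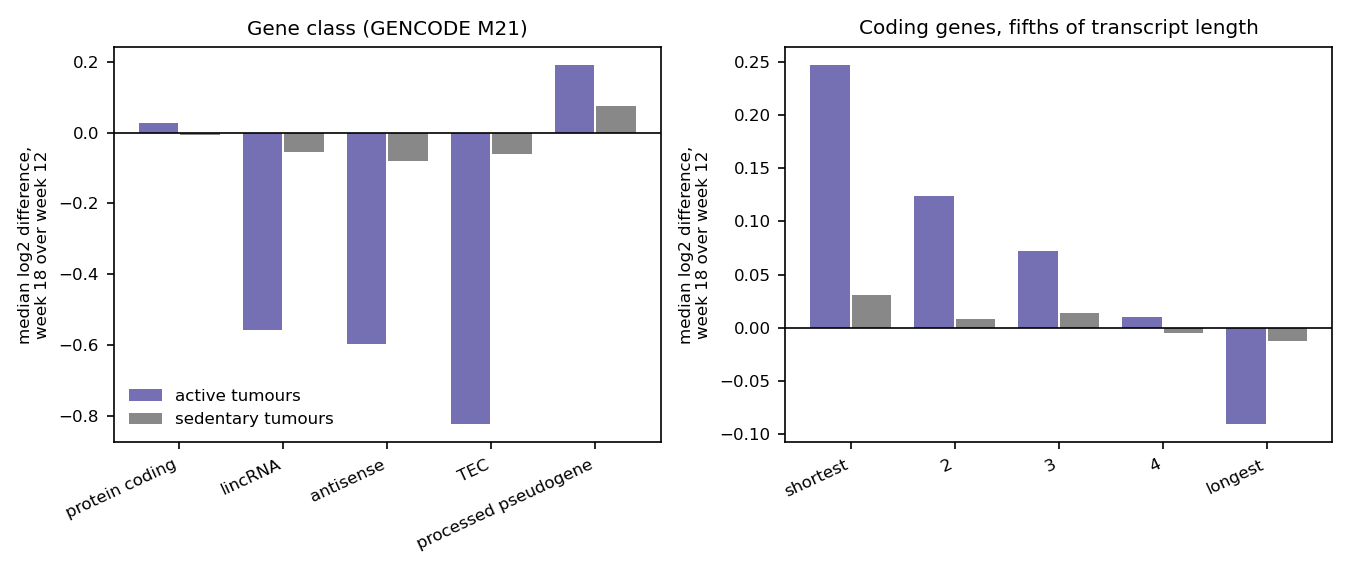
Median log2 difference of week 18 over week 12 (y axis, bars from 0) by gene class (left) and by 5 classes of transcript length among coding genes (right), in active and sedentary tumours. The noncoding classes lie at -0.82, -0.60 and -0.56 in active tumours and within 0.1 of 0 in sedentary ones, and the medians go down from the shortest to the longest class in active tumours.

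Fat genes were far lower at week 18. Of 16 adipocyte markers, 16 were below 0 and 14 were lower without overlap (background 12.6%), with a median of -4.60. Without week 12 replicate 3, which had most fat, the median was -3.57. DESeq2 called 14 of 16 lower (background 3.05%), and 9 of 16 without that tumour (background 1.16%). The median in sedentary tumours was -1.61, with 4 lower without overlap. For the difference of the changes, none of the 16 had an unadjusted limma p under 0.05, against 6.325% of all genes tested.

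The summed scaled counts of the list were 130440, 27861 and 625680 at week 12 and 5856, 11637 and 9502 at week 18. Both weeks thus held some fat RNA, and the lowest tumour of week 12 lay above the highest of week 18. Fabp4, the fatty acid carrier of adipocytes, held 15607, 3260 and 73497 scaled counts at week 12 and 255, 829 and 769 at week 18. Pck1, which supplies glycerol for fat storage, had a log2 difference of -5.59 ± 1.38 (SE) and a DESeq2 adjusted p of 2.38e-06. For 5 tumours the log2 difference of Pck1 was -4.26 and that of Fabp4 -3.71, against -4.83 with 6. Pparg, the master regulator of fat cells, went from 538, 162 and 2327 scaled counts to 55.7, 80.0 and 66.05, log2 differences of -3.13 and, for 5 tumours, -2.14.

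Vessel and stromal genes were lower as well. All 14 endothelial markers were below 0 and 7 were lower without overlap, with a median of -1.31, and of -0.81 without week 12 replicate 3. Leaving out week 18 replicate 1 raised the count to 13 of 14, while the background went from 12.6% to 17.9%. Kdr, the main VEGF receptor, held 1365, 861 and 3668 scaled counts at week 12 and 619, 533 and 404 at week 18 (DESeq2 adjusted p = 0.0239). Cdh5, the cadherin of endothelial junctions, held 1726, 1446 and 4390, and then 1059, 690 and 710. In both genes the highest value was that of week 12 replicate 3, yet the other week 12 tumours also lay above all of week 18. The log2 difference of Kdr was -1.67, and -1.09 with 5 tumours, and that of Cdh5 was -1.47 and -0.98.

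Fibroblast markers had a median of -1.27, and of -1.11 without week 12 replicate 3. With 6 tumours, 14 of 14 were below 0 and 4 were lower without overlap (background 12.6%). Pdgfra, a growth factor receptor of fibroblasts and fat precursors, held 1775, 1149 and 2828 scaled counts at week 12 and 236, 526 and 500 at week 18. Its DESeq2 adjusted p was 0.000671, and 0.00692 without week 12 replicate 3. The 29 collagen and matrix genes had a median of -0.34, and of -0.57 without week 12 replicate 3. With 6 tumours, 7 were lower and 0 higher without overlap (backgrounds 12.6% and 12.2%). They included Col15a1, a basement membrane collagen, with 5227, 3504 and 7091 scaled counts at week 12 and 1652, 1550 and 1269 at week 18 (DESeq2 adjusted p = 7.07e-06). The chains of collagen VI, Col6a1, Col6a2 and Col6a3, had log2 differences of -1.34, -1.44 and -1.39, and of -1.11, -1.17 and -1.06 with 5 tumours. For Col15a1 they were -1.77 and -1.53. Sedentary tumours had medians of -0.35 for endothelium, -0.44 for fibroblasts and -0.32 for collagens. The lower level of vessel and stromal genes at week 18 came beside a lower level of fat genes. Among the week 18 tumours, replicate 1 had the least fat RNA, the least Pdgfra and the most Kdr and Cdh5. Tek, another endothelial marker, was lowest there. It held 84.5, 165 and 156 scaled counts in week 18 replicates 1, 2 and 3, with all 12 tumours scaled together. The part of fat in the lower level of vessel and stromal genes was not tested.

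**Figure D4:**
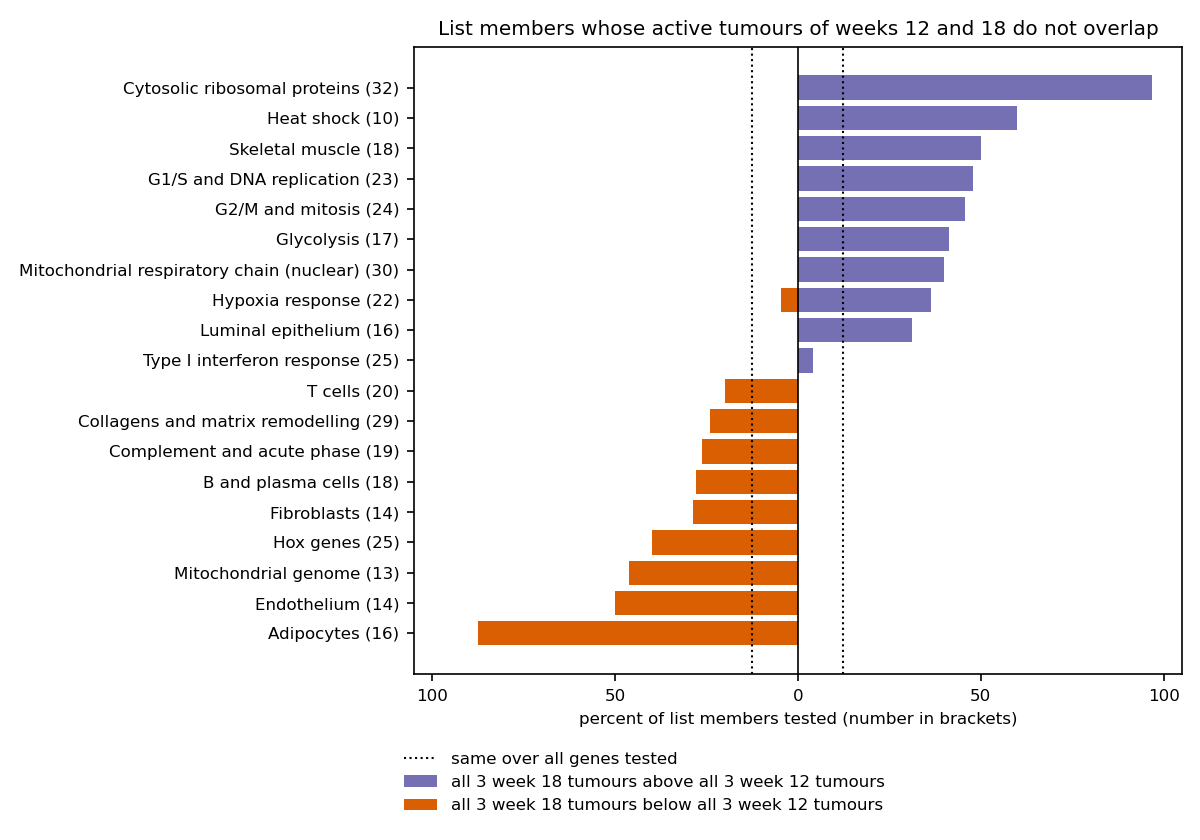
Percent of the tested members of 19 gene lists (y axis, number of members in brackets) whose 3 active tumours of week 18 all lay above (right) or below (left) the 3 of week 12. Dotted lines mark the same percent over all 19188 genes tested, 12.2% above and 12.6% below; ribosomal proteins reach 96.9% above and adipocytes 87.5% below.

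The difference in lymphocyte genes was much smaller without week 12 replicate 3. The T cell list had a median of -2.64 with all tumours and of -0.94 without that one. With 5 tumours, 4 of 20 members were lower and 1 was higher without overlap. These were 20% and 5%, against backgrounds of 17.3% and 16.1%. B and plasma cell markers went from -2.98 to -0.73, and markers of lymph node stroma from -2.59 to -1.07. In the 5 other tumours the T cell list had mean log2 levels of 5.22 and 5.05 at week 12 and 3.67, 4.96 and 4.59 at week 18. Macrophage and monocyte markers did not move as a group, with 10 of 20 above 0 and a median of -0.06, which was -0.13 with 5 tumours. The interferon list had a median of -0.05, and of -0.29 with 5 tumours, and depended on week 18 replicate 1, which held the lowest level, 9.14, where the other 5 tumours held 10.04 to 10.77. Without that tumour the median was 0.43 and 10 of 25 were higher without overlap (background 17.9%).

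Skeletal muscle genes were higher at week 18 in 2 of the 3 tumours. All 18 markers were above 0 and 9 were higher without overlap (background 12.2%). Their median was 3.39, and 3.25 without week 12 replicate 3. The mean log2 level of the list was 6.50, 4.68 and 5.34 at week 12 and 6.32, 9.93 and 9.34 at week 18. Week 18 replicate 1 thus stood with week 12, and without it 17 of 18 were higher without overlap (background 17.9%) and the median was 4.48. Ckm, the creatine kinase of muscle, held 123, 32.9 and 30.7 scaled counts at week 12 and 162, 2219 and 1161 at week 18, a log2 difference of 3.87, and of 3.53 with 5 tumours. DESeq2 called 14 of 18 higher (background 1.56%), and 9 without week 12 replicate 3 (background 0.649%).

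Sedentary tumours showed the reverse. Their median over the same 18 genes was -4.72, with 18 lower without overlap, and their list stood at 11.6 to 12.5 at week 12 and at 4.95 to 9.55 at week 18. The difference of the changes between active and sedentary tumours was tested over all 12 tumours. Its median over the list was 8.19 on the log2 scale. By limma, 18 of 18 members had an unadjusted p under 0.05, against 6.325% of all genes tested, but none passed after adjustment. Limma called 2 of 19241 genes for that difference (0.0104%), edgeR 0 and DESeq2 172. Apobec2, a gene of striated muscle, had 21.5, 6.37 and 7.97 scaled counts at week 12 and 271, 148 and 45.0 at week 18 in active tumours. Its log2 difference was 3.43 in active and -3.66 in sedentary tumours, and the difference of 7.09 ± 1.05 (SE) had a limma adjusted p of 0.182. Adssl1, a muscle form of an enzyme of purine synthesis, and Trim63, a ubiquitin ligase of muscle, followed with differences of 2.05 and 6.33, both at an adjusted p of 0.182. In the other direction the smallest p-values were those of Gm47572, Gm17249 and Rabep2, with differences of -2.29, -1.09 and -0.96 and limma adjusted p of 0.206, 0.214 and 0.246. Rabep2, whose product binds Rab proteins, held 1453, 1678 and 1495 scaled counts at week 12 and 980, 948 and 909 at week 18 in active tumours. Leaving out active week 18 replicate 1 raised the limma count to 23 genes, 22 of them with a difference above 0, that is, active minus sedentary. Such a difference can come from sedentary tumours alone, as at Isl1, which had 0 reads in all active tumours. Among the 22 were the muscle gene Mylpf, and Actn2, Cav3, Klhl40 and Myod1, muscle genes named here after their values were seen. Tumour pieces with and without adjoining muscle cannot be told apart from the labels.

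**Figure D5:**
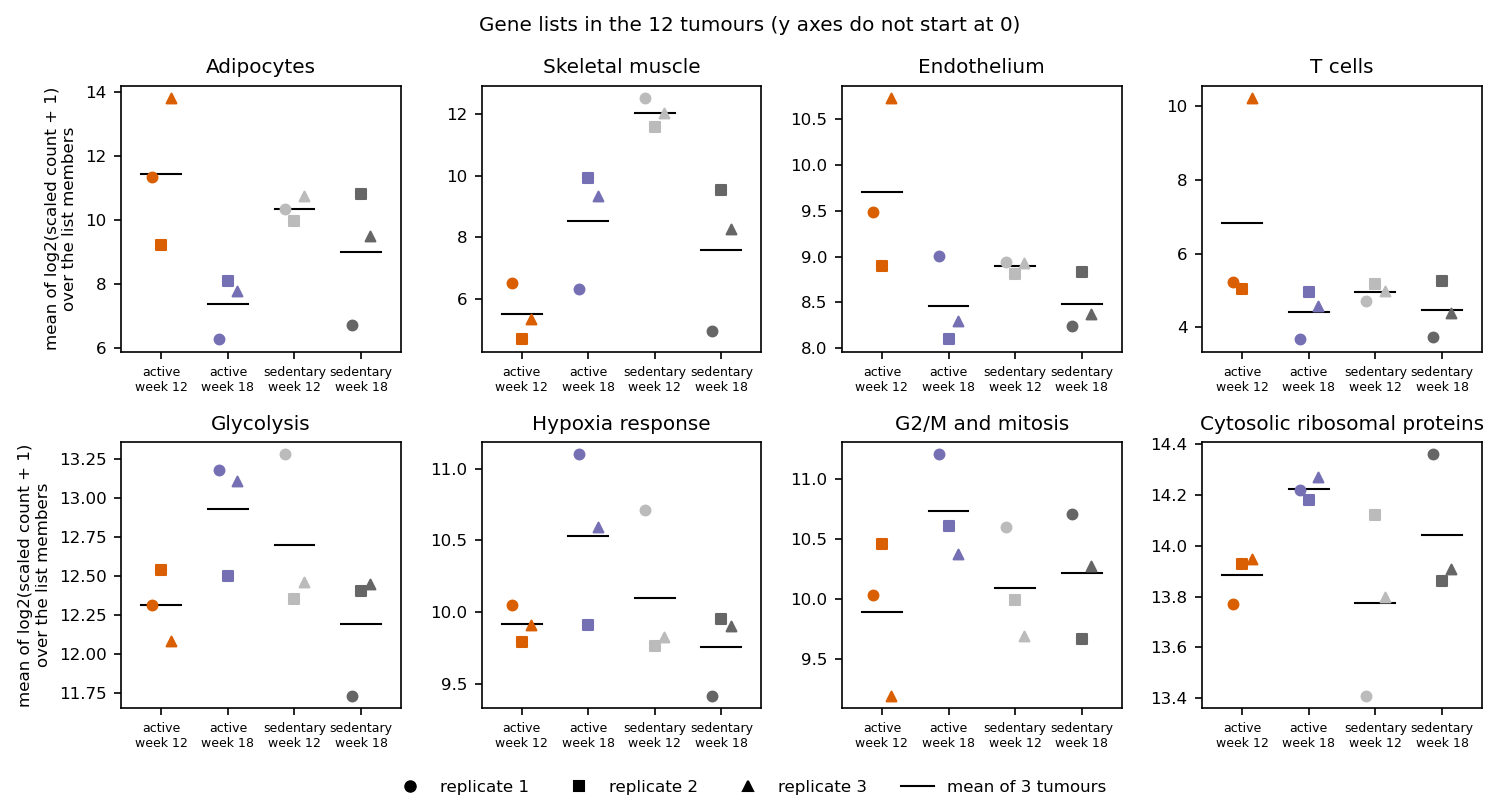
Mean log2(scaled count + 1) over the members of 8 lists (y axis, not from 0) in each of 12 tumours scaled together, with a line for the mean of 3. Adipocytes sit at 9.20 to 13.8 in active week 12 and 6.25 to 8.07 in active week 18, and T cells are high only in active week 12 replicate 3.

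Tbx3 had the smallest DESeq2 p-value of the genes named here. Tbx3, at chr5:119670534-119684724, encodes a T-box factor needed to form mammary buds. It held 366, 562 and 961 scaled counts at week 12 and 57.9, 51.2 and 56.9 at week 18, a spread of only 3.58 (SD) in the later tumours. The log2 difference was -3.37 ± 0.37 (SE, n = 3 each), with a limma adjusted p of 0.376 and a DESeq2 adjusted p of 3.49e-12. With 5 tumours it was -3.02 ± 0.24, at 0.131 by limma and 5.71e-17 by DESeq2. In sedentary tumours the log2 difference was -1.06, with overlap.

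Lgr5, a receptor for R-spondins found on stem cells of several epithelia, at chr10:115450314-115587780, had no overlap either. It held 148, 230 and 109 scaled counts at week 12 and 23.6, 34.2 and 28.4 at week 18 (DESeq2 adjusted p = 5.98e-06). For Lgr5 the log2 difference was -2.41, and -2.66 with 5 tumours. Areg encodes amphiregulin, the EGF receptor ligand through which oestrogen acts on the growing gland. Its levels were 493, 78.6 and 402 at week 12 and 32.1, 12.6 and 26.6 at week 18, a log2 difference of -3.44 ± 0.80 (SE), and of -3.10 with 5 tumours. In sedentary tumours Areg ranged from 5.67 to 313 at week 18, so that 1 of them resembled active tumours. Of the 16 genes of the hormone-responsive list, 13 were below 0 and 3 were lower without overlap, 18.8%, against a background of 12.6%, or of 17.3% with 5 tumours and the same count. DESeq2 called 5 lower, and 1 with 5 tumours. The list's mean log2 level overlapped between the weeks, at 7.97, 6.97 and 8.83 and then 7.02, 6.66 and 6.78. The oestrogen receptor gene Esr1 was called by neither test and its weeks overlapped, with 547, 199 and 1761 against 114, 231 and 237 scaled counts. The list's median was -1.14, and -0.55 without week 12 replicate 3.

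Hox genes, which record the position of a tissue along the body, were low at week 18. Of 25 genes, 25 were below 0 and 10 were lower without overlap, 40% against a background of 12.6%. The median was -2.07, and -1.26 without week 12 replicate 3. Sedentary tumours had a median of -0.78 over the list, with 5 members lower without overlap. Over all genes, the sedentary weeks did not overlap at 10.55%, in either direction. DESeq2 called 10 lower with 6 active tumours, and 3 without week 12 replicate 3. Hoxc10, at chr15:102966796-102971898, had 126, 54 and 315 reads in the week 12 tumours and 1, 4 and 0 at week 18. Its log2 difference of -6.00 ± 0.86 (SE) was -5.32 with 5 tumours and depends on the added count of 1, since the later tumours were near 0. Sedentary tumours held at most 4.11 scaled counts of Hoxc10 at either week, so it was active week 12 that differed from the other 3 groups. Taking the spread from all 12 tumours, Hoxc10 was 1 of 3 genes that limma called, at an adjusted p of 0.0432. Hoxa9 had 97, 29 and 214 reads and then 0, 7 and 1, and its sedentary counterparts held 8.21 to 33.9 scaled counts at week 12. Hoxb4 was lower without overlap, at 231, 145 and 209 against 77.1, 30.6 and 24.8 scaled counts. Its log2 difference was -2.27, and -2.21 with 5 tumours, and that of Hoxa9 was -5.21 and -4.51. The gland of origin was not given. The order of the Hox list across the week 12 tumours, 5.49, 3.96 and 6.79 on the log2 scale, was that of the fat list. Hoxc10 and Hoxa9 kept that order and Hoxb4 did not. With all 12 tumours scaled together, Hoxb4 was highest in sedentary week 18 replicate 1, at 775, where the fat list stood at 6.70. The part of fat in the Hox levels was not tested.

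Growth factor genes of the insulin-like family were divided. H19, an imprinted noncoding RNA that is high in the embryo and in several tumours, held 419, 759 and 322 scaled counts at week 12 and 4573, 1529 and 2034 at week 18. Its log2 difference was 2.37 ± 0.53 (SE), the DESeq2 adjusted p 0.000902, and with 5 tumours the difference was 2.10. In sedentary tumours it was -0.84. Igfbp3, which binds insulin-like growth factors in the blood and tissue, held 1820, 1162 and 1150, and then 4712, 3612 and 3373. Its DESeq2 adjusted p was 5.12e-05, and 0.00110 without week 12 replicate 3. Ghr, the growth hormone receptor gene, was lower, with 4465, 2519 and 14125 against 1459, 1508 and 1277, log2 differences of -1.94 and, for 5 tumours, -1.25. Across the 16 genes of the list, 3 were higher and 1 was lower without overlap, 18.8% and 6.25%, against backgrounds of 12.2% and 12.6%. Its median was -0.22 with 6 and with 5 tumours.

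Other genes with the smallest p-values were Sync, Pglyrp1, Osbpl6 and 5730507C01Rik with 6 tumours, and Gm45589, B430218F22Rik and Gm26981 with 5. Sync encodes syncoilin, a filament protein of muscle, and held 53.4, 54.2 and 51.2 scaled counts at week 12 and 133, 99.8 and 133 at week 18. Unlike the muscle list, Sync was high in week 18 replicate 1. Pglyrp1 encodes a peptidoglycan recognition protein of neutrophils and epithelia. It held 208, 383 and 179 scaled counts, and then 1714, 892 and 1158, with a log2 difference of 2.31 ± 0.40 (SE) and a DESeq2 adjusted p of 2.94e-05. With 5 tumours the differences of Pglyrp1, Sync and Osbpl6 were 2.09, 1.15 and -1.47, and with 6 that of Sync was 1.18 and that of Osbpl6 -1.49. Osbpl6, of the oxysterol-binding family, was lower, with 119, 112 and 123 against 37.5, 49.4 and 37.6 scaled counts. 5730507C01Rik had 95, 110 and 25 reads at week 12 and 0, 0 and 2 at week 18. In sedentary tumours the weeks of this gene overlapped. Gm45589, a long intergenic RNA gene, held 19.7, 13.8 and 0 scaled counts at week 12 and 71.8, 99.8 and 125 at week 18. B430218F22Rik held 33.7, 21.2 and 92.2, and then 105.01, 124 and 159. Gm26981, also intergenic, was lower, with 94.6, 87.1 and 42.1 against 27.9, 28.8 and 31.2. The log2 differences with 5 tumours were 2.48, 2.21 and -1.60, with DESeq2 adjusted p of 0.000165, 0.000152 and 0.00248. With 6 tumours they were 3.85, 1.63 and -1.24, at 0.0411, 0.161 and 0.0601.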

How the data were processed

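RNA was measured by sequencing of libraries made with a stranded mRNA kit from TRIzol extracts of tumours, per the labels' protocols. The authors deposited a normalized signal per gene, in 1 table for week 12 and another for week 18, and the deposited values were whole multiples of 1 step per library. Dividing by the step gave whole reads for 100% of values (tolerance 0.001), so these recovered counts rest on the values that the authors deposited. The genome build was mm10, per the submitters' processing notes. The aligner and the annotation are not given in the sources used here. Both tables were joined on 19241 symbols, and the 2 tables of other cells were not used. Of the symbols, 18870 had a class in GENCODE M21. Multi-copy genes depend on the authors' counting.

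Reads were scaled together by the median of ratios, and log2(scaled count + 1) was fitted with limma 3.58.1 (lmFit and eBayes) in R 4.3.3, keeping each gene whose mean scaled count reached 1 at 1 or both weeks. Benjamini-Hochberg adjusted p-values under 0.05 were called. Differences on this scale understate those of low genes. edgeR 4.0.16 (quasi-likelihood) and DESeq2 1.42.0 on recovered reads were alternatives, as were other scalings, filters, pseudocounts, a replicate block and fits without 1 library. The script was tested on simulated data. Transcripts were aligned with blastn 2.17.0. Reads carry no molecular identifiers, so a floor of 3 reads covers counting error only. Single values were tested by exact permutation.

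The comparison, the 52 gene lists and the alternatives were chosen with earlier results of these data known. Named genes were, for 6 and for 5 tumours, the 8 largest changes per direction among called genes without overlap, with a mean of 50 or more in the higher week and the same direction in the other comparison. Where fewer than 4 qualified, the smallest p-values filled up to 4. To these came the 4 members of each list with the smallest p in either comparison and a mean of 50 or more, defining markers, and the 3 smallest interaction p-values per direction. Where a gene falls outside this rule the text says so. The replicate numbers do not pair the tumours: same-numbered tumours had correlations of -0.0461, -0.183 and -0.0566. Overlap counts and list medians without single tumours, DESeq2 calls per list and the comparison of 2 against 2 tumours were chosen after seeing the data, as was the promoter search, which the planned condition (members passing limma together) did not call for.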

Additional observations from a re-analysis of the deposited data

Results flagged for a closer look

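The change from week 12 to week 18 differed between active and sedentary tumours at 2 genes by limma's interaction test. Isl1, a LIM homeobox gene, differed by 3.62 ± 0.36 on the log2 scale (SE, limma adjusted p = 0.0392). All 6 active tumours held 0 reads of it, and sedentary tumours held 16.4, 14.4 and 11.9 scaled counts at week 12 and 0, 0.991 and 0 at week 18. Gm16534, a noncoding transcript, differed by -2.49 ± 0.27 (SE, limma adjusted p = 0.0392). It held 30.9, 22.3 and 35.3 scaled counts in active week 12 tumours and 6.43, 6.29 and 8.26 at week 18, against 10.5, 11.3 and 10.1 and then 15.1, 15.9 and 18.4 in sedentary tumours. Leaving out 1 tumour gave a limma adjusted p of 0.000565 to 0.236 for Isl1 and of 0.00967 to 0.239 for Gm16534. By edgeR the adjusted p was 1 and 0.305, and by DESeq2 it was 0.569 and 0.00617.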

How the results depend on the processing

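For 6 active tumours, limma called 0 genes (2317 at an unadjusted p under 0.05). It called 5 with a pseudocount of 0.1, 1 (Gm9923) with a mean of at least 10, and 3 (Gm16534, Hoxc10 and Zfp979) with the spread from all tumours, and DESeq2 called 884. Fits without 1 replicate called 0 to 1. For 5 tumours, limma called 1 gene. It called 29 with a pseudocount of 0.1 and 6 with the spread from all tumours, and DESeq2 called 342. Limma with trend and robust options, limma-voom and edgeR each called 0 (1883, 1902 and 1870 at an unadjusted p under 0.05), as did each fit without 1 further replicate. The difference of the week change between active and sedentary tumours gave 2 genes by limma, 172 by DESeq2, and 0 with trend and robust options (1269 unadjusted) and by edgeR (1597 unadjusted). Fits without 1 replicate gave 0 to 23, the highest without active week 18 replicate 1. Without active week 12 replicate 3 it was 5. With the replicate number as a block, limma called 0 genes for 6 tumours (1567 unadjusted), 0 for 5 (1023 unadjusted) and 0 for the difference of the changes (1145 unadjusted), but the samples share only a number, and same-numbered tumours did not correlate best. The cause of these shifts was not tested. Among single genes, 1778 values kept direction and side of the threshold, 77 newly passed it, 34 no longer did and 0 reversed. Of the list medians, 1007 moved by less than the spread and 33 by more. Depth limits genes near 0 reads, such as Hoxc10 with 1, 4 and 0 reads at week 18.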

Other observations

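The apelin pair moved apart. Apln, the ligand, held 450, 643 and 299 scaled counts at week 12 and 2017, 773 and 916 at week 18, with no overlap, whereas Aplnr, its receptor on vessels, held 781, 680 and 599, and then 182, 338 and 401. DESeq2 gave adjusted p-values of 0.0662 and 0.0310, and the receptor's log2 difference was -1.23 ± 0.34 (SE) and -1.32 without week 12 replicate 3. Fgf2, another angiogenic factor, was lower, with 1096, 608 and 1196 against 394, 431 and 382 scaled counts (DESeq2 adjusted p = 0.00530, and 0.0451 without week 12 replicate 3). Apln had log2 differences of 1.35 and, without that tumour, 1.06. The angiogenic list as a whole had no steady direction. Of its 19 genes, 10 were above 0 and 9 below, and 2 were higher and 4 lower without overlap. These were 10.5% and 21.1%, against backgrounds of 12.2% and 12.6%. Its median was 0.26, and -0.34 without week 18 replicate 1. Of 12 neutrophil markers, 7 were above 0. S100a8 held 29.0, 44.6 and 38.7 scaled counts at week 12 and 81.4, 92.6 and 203 at week 18, and the list's median of 0.56 became 0.06 without week 12 replicate 3. Among heat shock genes, 6 of 10 were higher without overlap (background 12.2%), with a median of 0.40. Without week 12 replicate 3 it was 7 of 10 (background 16.1%), with a median of 0.28. Hspe1, a mitochondrial co-chaperone, held 2068, 2057 and 2273 and then 2955, 2697 and 3256 scaled counts. Complement component C4b held 15008, 8230 and 19512 scaled counts at week 12 and 3698, 5059 and 3836 at week 18 (DESeq2 adjusted p = 0.000431, and 0.00307 without week 12 replicate 3).

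A pair of genes outside the naming rule was chosen after its values were seen. Odc1, the first enzyme of polyamine synthesis, held 1947, 1695 and 1949 scaled counts at week 12 and 3407, 3196 and 3406 at week 18, a log2 difference of 0.84 ± 0.15 (SE) with a DESeq2 adjusted p of 2.84e-08 and a limma adjusted p of 0.413. Without week 12 replicate 3 it was 0.87. The nuclear noncoding RNA Malat1 held 45465, 36867 and 46277 scaled counts at week 12 and 10865, 20150 and 13835 at week 18. Its log2 difference was -1.56 ± 0.28 (SE) in active tumours, -1.50 without week 12 replicate 3, and 0.11 in sedentary tumours.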
